A study of Drosophila melanogaster with 6 samples.

Results

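The nuclear genes of respiratory complexes III and IV, cytochrome c and ATP synthase were described in Malpighian tubules, the renal organs of Drosophila melanogaster, from flies with and without gut tumours. A list of 31 genes was taken by FlyBase symbol from a table of 17611 genes. It holds 8 subunits of complex III, the somatic cytochrome c gene Cyt-c-p, 9 subunits of complex IV and 13 subunits of ATP synthase. All 31 symbols matched a row, 30 had counts and all of these 30 passed the filter on low counts. The deposited table's own KEGG column gave the subunit name for 29 of the 31. The exceptions were UQCR-C1, which it named as the beta subunit of the mitochondrial processing peptidase, a related protein, and UQCR-11, which it left without a term.

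The control genotype was heterozygous for the transgenes esg-GAL4, UAS-GFP and tub-GAL80TS, and the tumour genotype had UAS-yki3SA in addition to these. The driver esg-GAL4 acts in progenitor cells of the gut, where yki3SA, an activated Yorkie, the effector of the Hippo pathway, gives rise to tumours, and it also acts in the stem cells of the tubule. Virgin flies of both groups spent 6 to 8 days at 18 °C, followed by 8 days at 29 °C, which releases GAL4 from GAL80TS, and RNA was taken from 80 tubules of each genotype. Each group had 3 libraries of poly-A RNA, with totals between 34640437 and 49338340 counts. Whether replicate libraries came from separate cultures is not stated, so p-values reflect library-to-library spread only, possibly technical.

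In the respiratory chain, complex III passes electrons from ubiquinol to cytochrome c, and complex IV passes them from cytochrome c to oxygen. Both steps build the proton gradient across the inner mitochondrial membrane that drives ATP synthase. ATP synthase has a catalytic F1 head, a rotating ring of c subunits in the membrane and a peripheral stalk that holds the head still. In insect tubules a V-ATPase on the apical membrane energises fluid secretion, and mitochondria lie close to it in the principal cells. Complexes III and IV and ATP synthase also hold subunits encoded by the mitochondrial genome, so that each complex needs transcripts from both genomes.

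Transcripts of the list were lower in tumour tubules in nearly every member. Of the 30 members tested, 27 fell and 0 rose, against 13.0% of all 9789 genes that fell and 14.8% that rose at an adjusted p of 0.05 (edgeR quasi-likelihood test, Benjamini-Hochberg adjustment over all genes; the threshold throughout). The 3 members that did not pass were UQCR-6.4, UQCR-11 and Cyt-c-p. The median log2 fold change of tumour over control over the 30 members was -0.64, and that of all genes tested was 0.08. The control and tumour libraries did not overlap for 28 members, all lower in tumour, against 20.1% of all genes. Together the members held between 1.74% and 1.88% of all counts in control libraries and between 1.30% and 1.45% in tumour libraries. In bulk RNA, fewer cells of a type and less RNA per cell cannot be told apart.

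**Figure D1:**
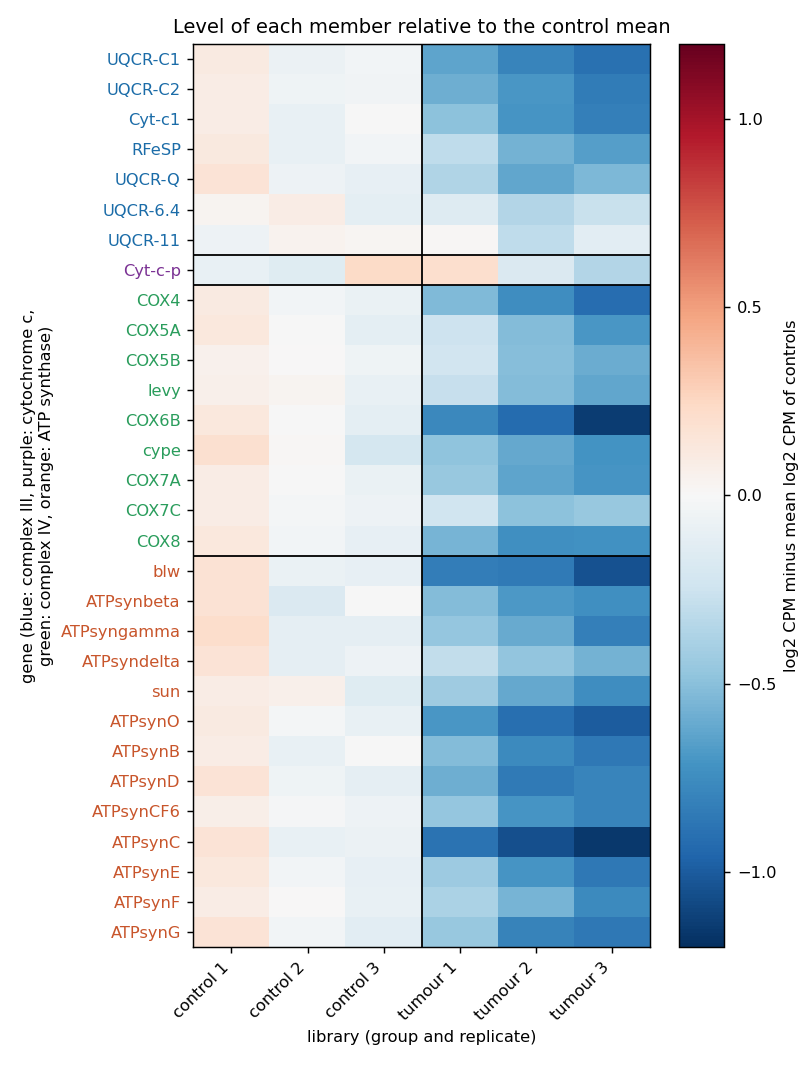
Log2 CPM (depth-scaled counts) of the 30 members with counts (rows, by complex) in the 6 libraries (columns), as the difference from the mean of the 3 control libraries; blue is lower and red is higher. The tumour columns are blue for nearly all rows, palest in tumour replicate 1, while Cyt-c-p and UQCR-11 show no such split.

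The change depended in size on the scaling. Scaling by the trimmed mean of M-values (TMM), used for the depth-scaled counts (CPM) throughout, set the median of all genes at 0.08; with library totals alone as the scaling that median was 0.37, a shift that carried the members with it. On library totals 17 members fell and 0 rose, with a median of -0.35, while of all genes 8.48% fell and 31.5% rose. Relative to the median of all genes, the members' median was -0.72 with TMM and -0.73 with library totals. A change of scaling shifts all genes nearly alike, so these values could hardly differ. Tested against a fold of 1.5, only ATPsynC and COX6B passed (adjusted p = 0.0186 and 0.0483), against 4.90% of all genes that did so as lower. In each fit without 1 library, between 18 and 27 members fell, and 18 did so in all 6 of these fits. Of all genes between 882 and 1141 fell in these fits, with between 10049 and 10083 tested.

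ATP synthase had the largest summed CPM and the lowest ratio of tumour to control sums among the listed complexes. Its 13 genes summed to 11813 ± 1149 CPM in control against 6845 ± 654 CPM in tumour libraries (mean ± SD of n = 3, as for all such values), a ratio of 0.579. This ratio leans on blw and ATPsynC, the most abundant of the 13 in control. Their means fell from 2822 to 1499 CPM and from 2430 to 1189 CPM. All 13 genes fell, with log2 fold changes between -1.03 and -0.45 and a median of -0.66. The number was 10 with library totals alone, and between 10 and 13 without any 1 library.

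The largest change of the list was in ATPsynC (FBgn0039830, chromosome 3R, 31216145 to 31219630 in the Ensembl BDGP6 annotation), which encodes the c subunit of the rotating membrane ring. Its CPM were 2717, 2270 and 2304 in control replicates 1 to 3 and 1313, 1168 and 1085 in tumour replicates 1 to 3. The highest tumour library lay well below the lowest control library. The log2 fold change was -1.03 ± 0.13 (SE, adjusted p = 0.00129), and the call held in all 6 fits without 1 library and with library totals alone.

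The catalytic subunits alpha and beta alternate in the F1 head and are encoded by blw and ATPsynbeta. The transcript of blw (FBgn0011211, chromosome 2R, 22799099 to 22802180) was at 3176, 2655 and 2634 CPM in control and 1576, 1561 and 1358 CPM in tumour libraries. That of ATPsynbeta (FBgn0010217, chromosome 4, 1031484 to 1034917) was at 2530, 1984 and 2233 CPM in control and 1561, 1384 and 1347 CPM in tumour libraries. Both fell without overlap between groups, blw by 0.91 and ATPsynbeta by 0.65 on the log2 scale (SE 0.13 each, adjusted p = 0.0021 and 0.0101). Per exonic length, the ratio of blw to ATPsynbeta was 1.33, 1.42 and 1.25 in control and 1.07, 1.195 and 1.07 in tumour libraries. Every tumour ratio was below every control ratio, although the 95% intervals of both fold changes overlap and their difference was not tested.

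The other F1 genes are those of the central stalk: ATPsyngamma, ATPsyndelta and sun, which encodes the epsilon subunit. ATPsyngamma fell from 768 ± 102 to 496 ± 60.7 CPM, but not past the threshold when control replicate 1 or tumour replicate 2 was left out (adjusted p = 0.0520 and 0.0511; the alternatives together spanned 0.000464 to 0.645). ATPsyndelta fell 1.36-fold; its call was lost without control replicates 1 or 3 or tumour replicates 2 or 3 (adjusted p at most 0.111, within a range of 0.00792 to 0.99999 over the alternatives), and its exons overlap CG2962 over 35.6% of their length. The transcript of sun, whose product is also known as a secreted ligand in the fly, was at 180, 177 and 153 CPM in control and 126, 111 and 101 CPM in tumour libraries, a fall of 1.51-fold (adjusted p = 0.0117). With library totals alone sun did not pass (adjusted p = 0.0595, the alternatives together spanning 0.00046 to 0.757).

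The genes of the peripheral stalk fell with a median log2 fold change of -0.73. ATPsynO (FBgn0016691, chromosome 3R, 15265591 to 15266690) encodes the subunit that joins the stalk to the F1 head. It was at 563, 513 and 491 CPM in control and 321, 278 and 261 CPM in tumour libraries, with no overlap, a fall of 1.82-fold (log2 fold change -0.87 ± 0.13, adjusted p = 0.00239). ATPsynB, ATPsynD and ATPsynCF6 fell 1.63-fold, 1.67-fold and 1.57-fold (adjusted p = 0.00635, 0.00528 and 0.00814). The calls of all 4 stalk genes held in each fit without 1 library. Of the small membrane subunits, ATPsynE, ATPsynF and ATPsynG fell 1.58-fold, 1.48-fold and 1.62-fold. Only ATPsynF lost its call without a library, namely control replicate 1, tumour replicate 2 or tumour replicate 3 (adjusted p at most 0.0590; the alternatives together spanned 0.00101 to 0.883); it also did not pass with library totals alone.

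**Figure D2:**
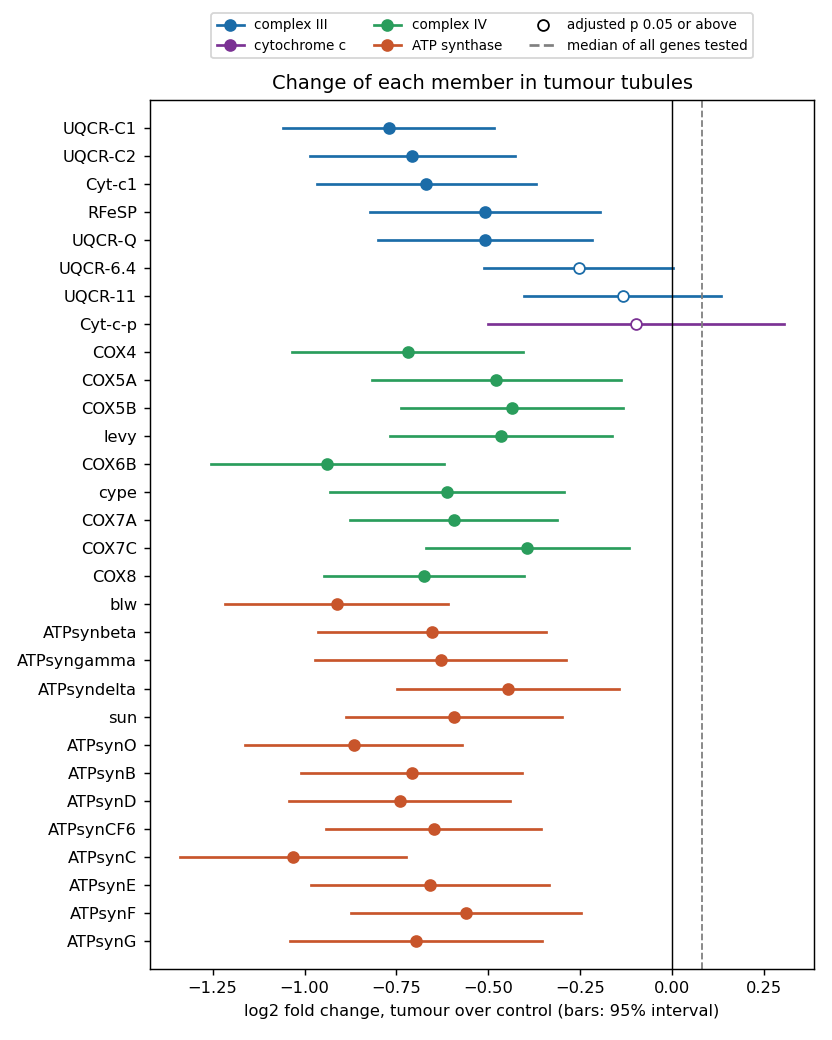
Fitted log2 fold change of tumour over control for each member (points, filled where the adjusted p is under 0.05) with its 95% interval (bars); the dashed line is the median of all genes tested, at 0.08. All 13 ATP synthase and all 9 complex IV points are filled and left of 0, whereas UQCR-6.4, UQCR-11 and Cyt-c-p are open.

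All 9 nuclear genes of complex IV, cytochrome c oxidase, fell, with log2 fold changes between -0.94 and -0.39 and a median of -0.59. Their summed CPM was 4239 ± 297 in control and 2811 ± 335 in tumour libraries, a ratio of 0.663. The count moved with the libraries used: 5 genes fell whenever a library other than tumour replicate 1 was left out, all 9 when that one was, and 4 with library totals alone. COX4, COX6B, cype, COX7A and COX8 kept their calls in each fit without 1 library, whereas COX5A, COX5B, levy and COX7C lost theirs in 5 of the 6.

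COX6B (FBgn0031066, chromosome X, 19740537 to 19744335), whose product faces the intermembrane space, changed most in this complex. It was at 583, 533 and 492 CPM in control and 313, 282 and 243 CPM in tumour libraries, with a wide gap between groups. The log2 fold change was -0.94 ± 0.14 (adjusted p = 0.00227), and 9.38% of its exonic length overlaps CG18809. COX4 (FBgn0032833, chromosome 2L, 19958713 to 19960065), which encodes the largest nuclear subunit of the complex in mammals, was at 757, 683 and 665 CPM in control and 486, 419 and 373 CPM in tumour libraries, a fall of 1.65-fold (adjusted p = 0.0073). COX8, cype and COX7A, genes of single-span membrane subunits, fell 1.60-fold, 1.53-fold and 1.51-fold (adjusted p = 0.00503, 0.0143 and 0.00984); the call of cype was lost with library totals alone (adjusted p = 0.0581; the alternatives together spanned 0.00037 to 0.698).

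The smallest falls in complex IV were 1.39-fold for COX5A, 1.38-fold for levy, 1.35-fold for COX5B and 1.31-fold for COX7C. Their adjusted p lay between 0.0329 and 0.0446. Without 1 library these p-values reached 0.126, 0.103, 0.129 and 0.141 in the same order, and over all alternatives each ranged up to 0.99999 from 0.00972, 0.00509, 0.00987 and 0.0111. COX7C (FBgn0040773, chromosome 2R, 10048353 to 10050066) was at 290, 268 and 261 CPM in control and 231, 194 and 198 CPM in tumour libraries. Tumour replicate 1 was nearest to the controls, and 15.7% of the exonic length overlaps oys on the other strand.

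Complex III was the only listed complex with tested members that did not pass. Of its 7 members tested, 5 fell, with log2 fold changes over the 7 from -0.77 to -0.14 and a median of -0.51. The summed CPM was 3440 ± 212 in control and 2205 ± 215 in tumour libraries, a ratio of 0.641. Leaving out control replicate 1 or either of tumour replicates 2 and 3 left 3 that fell, as did library totals alone: UQCR-C1, UQCR-C2 and Cyt-c1.

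The core proteins, encoded by UQCR-C1 and UQCR-C2, form the matrix side of the complex. UQCR-C1 (FBgn0038271, chromosome 3R, 14890231 to 14892387) was at 1193, 1049.7 and 1077 CPM in control and 712, 638 and 594 CPM in tumour libraries, a log2 fold change of -0.77 ± 0.12 (adjusted p = 0.00363). UQCR-C2 fell 1.63-fold (adjusted p = 0.0046). Among the redox subunits, Cyt-c1, the gene of cytochrome c1, was at 632, 558 and 591 CPM in control and 421, 363 and 337 CPM in tumour libraries (log2 fold change -0.67 ± 0.13, adjusted p = 0.00779), and RFeSP, the gene of the Rieske iron-sulphur protein, fell 1.42-fold (adjusted p = 0.0272). UQCR-Q, the gene of a small ubiquinone-binding subunit, also fell 1.42-fold (adjusted p = 0.0212). RFeSP lost its call without control replicates 1 or 3 or tumour replicates 2 or 3, and UQCR-Q without control replicate 1 or tumour replicates 2 or 3 (adjusted p at most 0.0890 and 0.0790); over all alternatives each reached 0.99999, from 0.00291 and 0.00166. Exons of RFeSP overlap CG14352 over 13.2% of their length.

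The small subunits UQCR-6.4 and UQCR-11 did not pass. UQCR-11, the hinge subunit that sits beside cytochrome c1, was at 122, 131 and 129 CPM in control and 129, 103 and 117 CPM in tumour libraries, so the groups overlapped. Its log2 fold change was -0.14 (95% interval -0.40 to 0.13, adjusted p = 0.426). UQCR-6.4 was at 61.0, 63.6 and 55.2 CPM in control and 53.9, 47.0 and 49.8 CPM in tumour libraries, without overlap but with a log2 fold change of -0.25 (95% interval -0.51 to 0.00, adjusted p = 0.126). Both intervals reach a change as large as that of COX7C, which passed, and on library totals alone both log2 fold changes were above 0, at 0.15 and 0.03. Exons of UQCR-6.4 overlap POSH over 40.5% of their length.

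UQCR-14 (FBgn0030733, chromosome X, 16286288 to 16286988), the last subunit of complex III in the list, had 0 counts in all 6 libraries, although the other subunits of the complex had control means between 59.9 and 1106 CPM. All of its exonic bases lie under exons of CG32576 on the other strand. Of the 75 protein-coding genes in the table with such complete overlap, 75 were at 0 in every library, against 12.7% of the 9360 with no exonic overlap. The upper limit for a library at 0 is 3 counts, which is 0.0517 to 0.0911 CPM and covers counting error only, and here it limits the counts assigned to the gene, not its transcript. Exons of 12 of the 31 members overlap another counted gene, 5 of them over more than 10% of their length, and counts from such stretches are uncertain because the strand setting of counting is not given.

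The cytochrome c gene did not pass. Cyt-c-p (FBgn0284248, chromosome 2L, 16719932 to 16722644) was at 407, 391 and 506 CPM in control and 496, 384 and 338 CPM in tumour libraries. The groups overlapped, with control replicate 3 and tumour replicate 1 the highest. The log2 fold change was -0.10 (95% interval -0.50 to 0.30, adjusted p = 0.711) and its sign was not stable: it was 0.02 without control replicate 3, 0.01 without tumour replicate 3 and 0.18 with library totals alone. Over all alternatives the adjusted p lay between 0.215 and 0.99999. The interval includes the changes of COX7C, COX5B, levy and COX5A, which passed, and the difference from them was not tested. The testis copy Cyt-c-d had between 9 and 42 counts in control and between 1 and 9 in tumour libraries and was not tested.

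Ratios of summed CPM between complexes were compared library by library, since they do not depend on the scaling. ATP synthase over complex IV was 2.89, 2.63 and 2.84 in control and 2.37, 2.48 and 2.47 in tumour libraries, with no overlap. ATP synthase over complex III was 3.57, 3.37 and 3.35 in control and 3.08, 3.16 and 3.07 in tumour libraries, again with every tumour ratio below every control ratio. Complex IV over complex III was 1.24, 1.28 and 1.18 in control and 1.30, 1.27 and 1.25 in tumour libraries, and these overlapped. The ATP synthase sum is carried by few genes, since blw, ATPsynbeta and ATPsynC were the most abundant members by CPM. Of these, ATPsynC and blw also fell most in the complex. Ratios without these genes were not computed, so the lower ratios describe the sums and not the complex as a whole.

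Cytochrome c over complex IV was 0.0895, 0.0928 and 0.128 in control and 0.156, 0.141 and 0.134 in tumour libraries. Every tumour ratio exceeded every control ratio, by a small margin over control replicate 3. Set against a single partner per exonic length, Cyt-c-p over Cyt-c1 was 1.44, 1.57 and 1.91 in control and 2.63, 2.37 and 2.24 in tumour libraries. These ratios describe the members and carry no test.

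**Figure D3:**
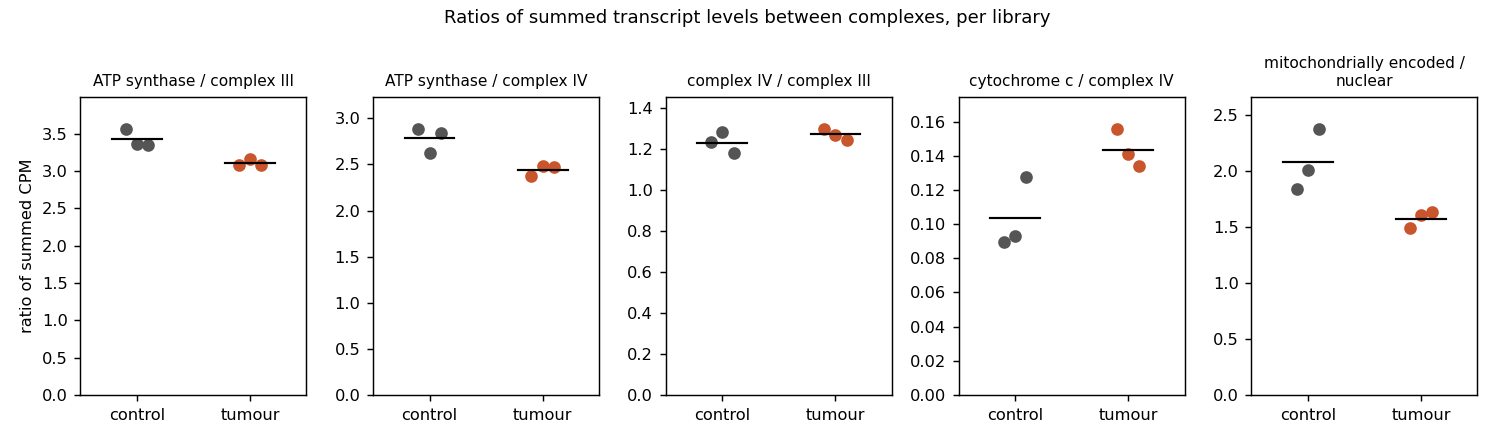
Ratio of summed CPM between groups of genes in each library (points; lines are means, n = 3 per group; axes start at 0). Both ATP synthase ratios and the mitochondrially encoded over nuclear ratio are lower in all 3 tumour libraries, cytochrome c over complex IV is higher, and complex IV over complex III overlaps between groups.

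Per exonic length, control levels ranged from 79.1 CPM per kb for UQCR-11 to 1301 CPM per kb for ATPsynC, and the order of the highest was ATPsynC, blw, levy, ATPsynbeta and ATPsynF. Of the 29 pairs of neighbours in this order, 24 overlapped over the 3 control libraries. The 5 steps without overlap lay between blw and levy, between ATPsynF and COX7A, and among the lowest members below COX7C. The medians were 390, 570.0 and 527 CPM per kb for complexes III and IV and ATP synthase in control, and 246, 357 and 340.0 CPM per kb in tumour libraries. Exonic length is that of all annotated exons of a gene, so a gene with long alternative exons such as ATPsyndelta (3817 bases) is placed too low.

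Members with a higher control level had the more negative log2 fold change. Over the 30 members Pearson's r between log2 control CPM and log2 fold change was -0.62 and Spearman's rho -0.54, and with control CPM per kb r was -0.57 and rho -0.41. The genes share libraries, and the control level enters both measures, so this is a description. With log2 exonic length r was -0.21. Within each group the libraries also ordered the members alike: tumour replicate 1 was the highest tumour library for all 30 members, and control replicate 1 the highest control library for 27. Without tumour replicate 1 the median log2 fold change of the members was -0.77.

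**Figure D4:**
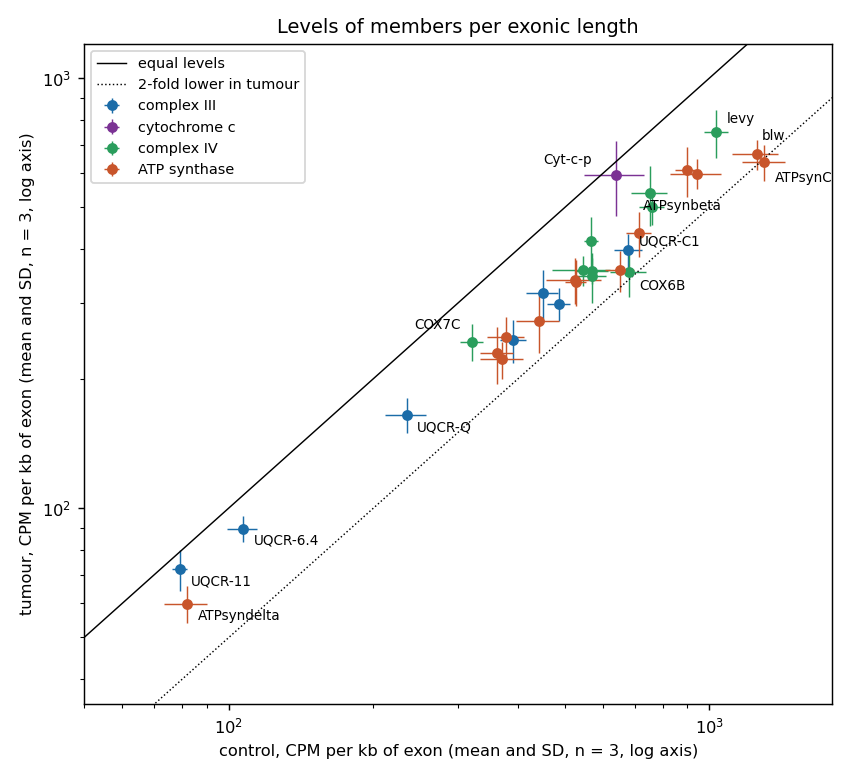
Mean level per exonic length in control (x) and tumour (y) libraries for each member with counts, in CPM per kb on log axes, with SD (n = 3). ATPsynC, COX6B, blw and ATPsynO lie at or near the line of a 2-fold lower level, and Cyt-c-p, UQCR-11 and UQCR-6.4 lie nearest to the line of equal levels.

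The subunits of the same complexes that the mitochondrial genome encodes were lower by more. Of 6 genes 5 fell, and the median over the 6 was -1.13 on the log2 scale. Their summed CPM was 41176 ± 3734 in control and 19249 ± 1096 in tumour libraries, a ratio of 0.467. The ratio of this sum to that of the nuclear members was 1.84, 2.01 and 2.38 in control and 1.49, 1.60 and 1.63 in tumour libraries, without overlap. The catalytic oxidase gene mt:CoI was at 17296, 16472 and 20089.6 CPM in control and 9022, 8571 and 8255 CPM in tumour libraries (log2 fold change -1.06 ± 0.12, adjusted p = 0.000777). The genes mt:CoII, mt:CoIII, mt:Cyt-b and mt:ATPase6, for oxidase subunits, cytochrome b and the proton channel of ATP synthase, fell by 1.13, 1.11, 1.13 and 1.19 on the log2 scale. The sixth gene, mt:ATPase8, is 162 bases long, overlaps mt:ATPase6 and had between 13 and 45 counts per library; its log2 fold change was -1.49 (adjusted p = 0.0578), and it passed by DESeq2. The calls of the other 5 held in each fit without 1 library.

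Nuclear subunits outside the list gave no call. The complex III subunit gene ox was at 37.7, 38.7 and 26.3 CPM in control and 25.7, 25.2 and 23.7 CPM in tumour libraries (log2 fold change -0.46 ± 0.16, adjusted p = 0.0662); it passed in 5 alternatives, with the smallest adjusted p (0.0197) when control replicate 3, its lowest control library, was left out; the largest was 0.99999. An overlap with mRpL18 covers 12.4% of its exonic length. ND-MLRQ, the homologue of a mammalian protein now placed in complex IV, was at 273, 245 and 235 CPM in control and 276, 228 and 240 CPM in tumour libraries. Its groups overlapped (log2 fold change -0.02 ± 0.12, adjusted p = 0.932). Duplicated copies of members, most of them testis genes, were near or at 0: 14 of 18 listed names had a row, 6 had 0 counts in all libraries and 2 were tested. The most abundant was COX4L, at 1.37 ± 0.206 and 0.731 ± 0.163 CPM (adjusted p = 0.15). Among the copies at 0 is a gene with 100% of its exonic length under exons of another gene. As for UQCR-14, its 0 limits the counts assigned and not its transcript.

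Of 14 tested genes that assemble complexes III and IV, 3 fell and 0 rose, against 13.0% and 14.8% of all genes. The median over the 14 was -0.21 on the log2 scale. Bcs1, the chaperone that inserts the Rieske protein, fell to 6.85 ± 0.891 CPM in tumour libraries from 16.8 ± 2.15 CPM in the controls (-1.29 ± 0.17 on the log2 scale, adjusted p = 0.00156), a call held in every fit without 1 library. Cchl, the lyase that attaches haem to cytochrome c, and Cox10, an enzyme of haem a synthesis, fell by 0.44 and 0.41 on the log2 scale (adjusted p = 0.0172 and 0.039). Bcs1 alone fell when control replicate 3 or either of tumour replicates 2 and 3 was left out, and Bcs1 and Cchl when control replicate 1 or 2 was. On library totals alone 1 of the 14 fell and 3 rose, against 8.48% and 31.5% of all genes. Only 15 of the 31 names of this list had a row.

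CG34423, a fly relative of the mammalian ATPase inhibitor IF1, was the only gene of these pathway lists that rose. It had 16, 17 and 22 counts in control and 72, 57 and 116 in tumour libraries (log2 fold change 1.77 ± 0.45, adjusted p = 0.0224). This is a low level, 65.7% of its exonic length overlaps the antisense gene asRNA:CR44168, and the call was lost without control replicates 1 or 2 or tumour replicates 1 or 3 (adjusted p at most 0.0701; the alternatives together spanned 0.00658 to 0.0819). Its far more abundant relative CG13551 was at 147 ± 3.23 and 135 ± 12.5 CPM (adjusted p = 0.443).

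Genes of complexes I and II fell as well. Of 31 tested nuclear genes of complex I, 18 fell and 0 rose, against 13.0% and 14.8% of all genes. The median log2 fold change was -0.42, and the summed CPM was 5728 ± 240.3 in control and 4034 ± 432 in tumour libraries, a ratio of 0.704. ND-39, ND-18, ND-75 and ND-19 had the smallest adjusted p (0.00321 to 0.0058). Leaving out control replicate 1 gave 10 that fell, control replicate 3 gave 11, and either of tumour replicates 2 and 3 gave 9. With library totals alone 9 fell and 1 rose, against 8.48% and 31.5% of all genes. All 4 genes of complex II fell, with SdhA lowest at -1.22 ± 0.12 on the log2 scale, but SdhA was the 1 that did so when control replicate 1 or either of tumour replicates 2 and 3 was left out, and with library totals alone. The difference between these complexes and the listed ones was not tested.

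Of 5 tested genes of carriers that feed and drain ATP synthase, 3 fell and 0 rose, against 13.0% and 14.8% of all genes. Mpcp2, a phosphate carrier gene, fell from 2221 ± 125 to 1194 ± 136 CPM, and sesB, the main adenine nucleotide translocase gene, from 2934 ± 325 to 1639 ± 203 CPM (adjusted p = 0.00206 and 0.00457). The third was porin, of the outer membrane channel. Of 8 genes of inner membrane shape 3 fell, against 13.0% of all genes. Mitofilin fell by 0.70, Letm1 by 0.56 and Chchd3 by 0.51 on the log2 scale. Of these, porin and Chchd3 lost their calls when control replicate 1 or either of tumour replicates 2 and 3 was left out (adjusted p at most 0.0652 and 0.0870; the alternatives together reached 0.99999, from 0.000819 and 0.00468), and Chchd3 also when control replicate 3 was. With library totals alone 2 carriers and 1 shape gene fell, and 1 shape gene rose, while of all genes 8.48% fell and 31.5% rose.

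Of 12 tested regulators of mitochondrial genes 1 fell and 0 rose, against 13.0% and 14.8% of all genes. That gene was clu, which encodes an RNA-binding protein of messenger RNAs for mitochondrial proteins (log2 fold change -0.51 ± 0.14, adjusted p = 0.0334); the call held only without control replicate 2 among the fits without 1 library (adjusted p between 0.0164 and 0.0894; the alternatives together spanned 0.00523 to 0.99999). The PGC-1 homologue srl (like TFAM and CG13551, named for its role after values were seen) was at 20.4 ± 3.78 and 32.6 ± 14.2 CPM (adjusted p = 0.137), and the mitochondrial transcription factor gene TFAM at 41.9 ± 2.89 and 38.7 ± 2.22 CPM (adjusted p = 0.474). With library totals alone 3 of the 12 rose and 0 fell, against 31.5% and 8.48% of all genes.

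Markers of other cell types were also compared between the groups. At the same threshold 13.0% of all genes were lower and 14.8% were higher. The summed CPM of 21 midgut enterocyte markers ranged from 327 to 928 in control and from 37.4 to 181 in tumour libraries. Of the 20 tested, 12 were lower and 1, nub, was higher. For 12 fat body markers the sum ranged from 2978 to 6362 and from 464 to 812, with 5 of 11 lower. Only 6 of these 11 had log2 fold changes below 0, with a median of -0.81 and a range from -4.61 to 3.49. For 15 germline and eggshell markers the sum ranged from 131 to 299 and from 7.89 to 33.5, with 9 of 15 lower. Muscle, a tissue rich in mitochondria, had a sum over 22 markers between 2007 and 2061 in control and between 2079 and 2414 in tumour libraries, with 3 of 21 higher and 2 lower. The higher sum rested on few genes, as 13 of the 21 muscle markers had log2 fold changes below 0, with a median of -0.25, and the groups did not overlap for 7 on the lower and 3 on the higher side (20.1% and 26.8% of all genes). Haemocyte markers summed to between 266 and 279 in control and between 262 and 295 CPM in tumour libraries, with 2 of 6 lower, 1 higher and a median log2 fold change of -0.63; crq, the higher one, made up most of the sum. Neuronal markers summed to between 49.8 and 60.2 CPM in control and between 54.5 and 66.0 in tumour libraries, with 1 of 6 higher, 0 lower and a median of -0.89. Tracheal markers summed to between 31.2 and 43.7 and between 21.8 and 26.4 CPM, with 1 of 6 lower and a median of -0.66. Enteroendocrine markers summed to between 12.8 and 19.4 and between 6.85 and 8.41 CPM, with 1 of 5 lower, 1 higher and a median of -1.13. Progenitor markers summed to between 34.6 and 39.6 and between 44.3 and 68.5 CPM, with 1 of 8 lower, 2 higher and a median of 0.57. The tubule's own principal cell markers summed to between 16135 and 21048 in control and between 10597 and 12637 in tumour libraries. Of these markers 4 of 10 were lower, with a median log2 fold change of -0.42. Stellate cell markers summed to between 1241 and 1429 and between 954 and 1093, with 2 of 6 lower and a median of -0.39. Of the markers of all these cell types the stellate gene Rab9Fb was at 0 throughout. The part of these cell types in the lower levels of the members was not tested.

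**Figure D5:**
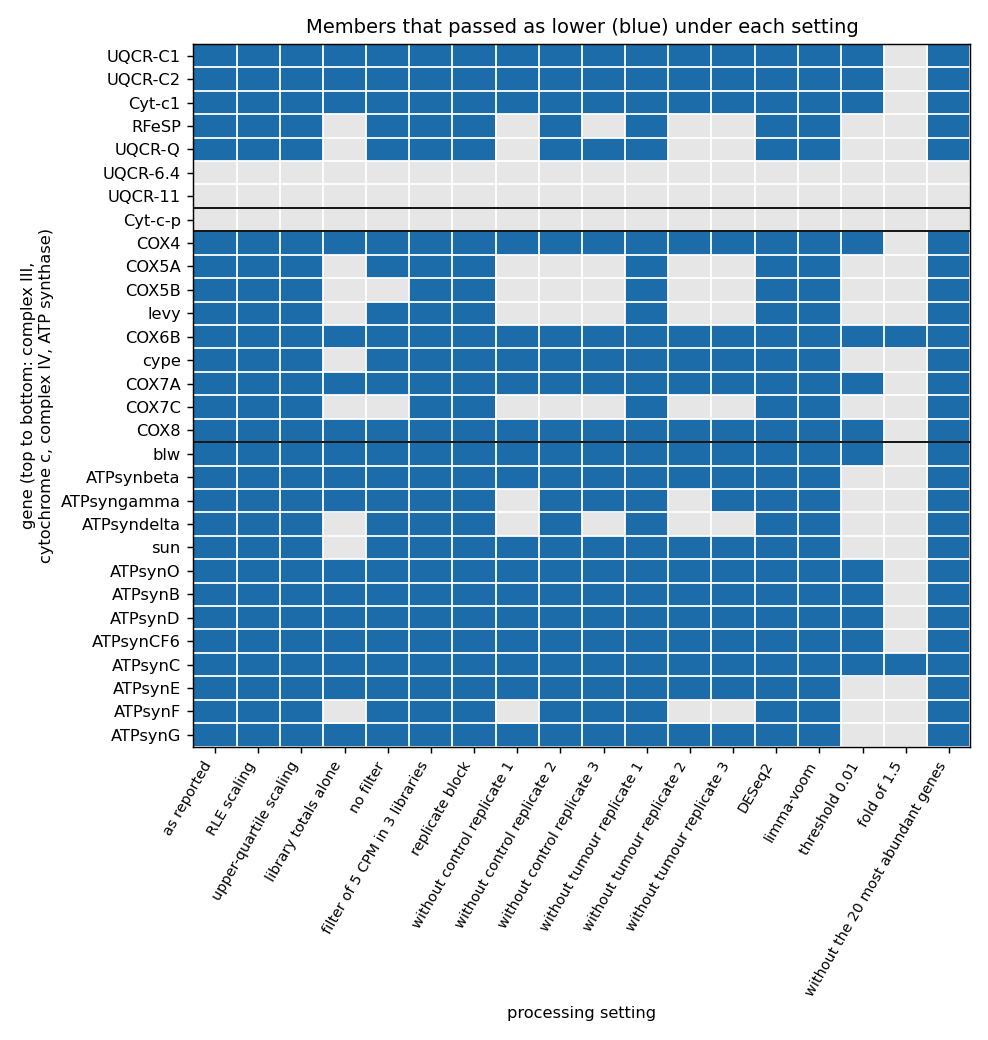
Members (rows) that passed as lower (blue) or did not (grey) under each processing setting (columns). The columns of library totals alone, of 5 of the 6 fits without 1 library, of the threshold of 0.01 and of the fold of 1.5 lose the most, and UQCR-6.4, UQCR-11 and Cyt-c-p are grey in each column.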

How the data were processed

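Raw counts of reads for each gene and library came in 1 table deposited by the authors. HTSeq, TopHat and Cufflinks appear in the submitters' processing notes, without version or role. Genome build, annotation and the strand setting of the counter: not given in the sources used here. Libraries were poly-A selected with TruSeq kits from RNA of integrity number above 7, per the labels' protocols. Coordinates and exonic lengths are from Ensembl BDGP6, matched by FlyBase identifier for 17552 of 17611 genes, and need not be those of counting. Symbols were matched for 17551.

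The main test used edgeR 4.0.16 under R 4.3.3. Alternatives used DESeq2 1.42.0 and limma 3.58.1, and summaries used Python 3.11.15. Genes were kept by filterByExpr (minimum count 10, total 15), scaled by TMM, and tested two-sided with the robust quasi-likelihood test. SE is the log2 fold change over the square root of F. Overlap of exons was computed against genes of the table. Libraries of a group differed by more than sampling noise (chi-square per gene between 71.0 and 131).

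Members and lists were chosen with earlier results of these data known. Genes named were all members; of each pathway list up to 4 that passed with the smallest adjusted p, or 2 where none did; all mitochondrially encoded and other nuclear subunits; Cyt-c-d and any copy over 1 CPM.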

Additional observations from a re-analysis of the deposited data

How the results depend on the processing

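The direction of the members' median and the absence of a member that rose held under every alternative run. With library totals alone the counts of lower genes were 17 of all members, 3 of complex III and 4 of complex IV, and the median was -0.35. At a threshold of 0.01 they were 13 of all members, 3 of complex III, 4 of complex IV and 6 of ATP synthase, against 599 of all 9789 genes. Tested against a fold of 1.5 they were 2, 0, 1 and 1 in the same order, where 4.90% of all genes were lower. Leaving out each library gave 18 to 27 for all members, 3 to 5 for complex III, 5 to 9 for complex IV, 10 to 13 for ATP synthase and a median between -0.77 and -0.55. Fewer samples enter these last fits; otherwise the cause was not tested. RLE and upper-quartile scaling, a filter of 5 CPM in 3 libraries, leaving out the 20 most abundant genes, DESeq2 and limma-voom each gave 27 lower members, and no filter gave 25. With the replicate number as a block, 27 members fell; deviations of same-numbered libraries correlated at 0.12, -0.02 and 0.05, so the numbers give no pairing. Depth limits none of the 30 members with counts, the lowest of which, UQCR-6.4, had at least 1818 counts per library.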
